A study of Homo sapiens with 8 samples.

Results

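In U-937 cells, 204 stretches of open chromatin were at least 2000 bp wide under each of 4 treatments. They were found by joining overlapping peaks within each of the 4 deposited peak lists, uniting the 4 lists, and keeping every united region in which each list held a joined region of at least 2000 bp. The united set held 161291 regions, of which 66303 were called in all 4 lists, and the 204 wide regions are a subset of the latter. The members were chosen by their measured width, so their widths, and the summit counts and peak strengths taken from the same peaks, are given as a description without any test.

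The measurement was ATAC-seq, in which a transposase inserts sequencing adapters into DNA that is not wrapped in nucleosomes or otherwise covered. U-937 is an established human monocytic leukaemia line. Cells received DMSO, the vehicle, or ATRA at 0.1 µM, or Corin at 0.1 µM, or ATRA and Corin together at 0.1 µM each (the combination), for 24 h. ATRA, all-trans retinoic acid, activates retinoic acid receptors, and Corin is an inhibitor of both the demethylase LSD1 and the histone deacetylases in the CoREST co-repressor complex. The labels give 2 samples per group, 8 in all, but the files used here held 1 list per group with the replicates already combined by the authors. No value therefore has a spread between replicates, no difference between treatments could be tested, and the read depth is unknown. One cell line was used, so nothing here speaks to other leukaemia cells. Starts of 7 of 8 genes typical of monocytic leukaemia cells (SPI1, CSF1R, CD33, ITGAM, LYZ, CEBPA and CD68, with MPO absent) lay in called regions of every list. Of 5 lymphoid genes 1, CD79A, did so in every list; of 4 erythroid genes 1, GATA1, did so with DMSO and with Corin, and of 3 epithelial genes 1, EPCAM, with DMSO. An open start is not a measure of expression.

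Most open regions are short, the length of a single regulatory element. The widest ones are commonly promoters in CpG islands, which are stretches rich in the dinucleotide CpG that often lack DNA methylation and stay free of stable nucleosomes. Wide open regions also occur where a cluster of enhancers or neighbouring promoters runs together, and at very strongly transcribed genes the gene body itself can be accessible.

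The 6 summit sequences printed here show what lies under the strongest summit of members of different kinds. They are 120-bp windows centred on the summit in the named list, on the plus strand of hg38, and capitals mark matches, on either strand, to short consensus motifs. Members and windows were chosen for printing after their values were seen. SAP30L has the highest peak fold with DMSO, HSP90AB1 is the member whose width has the largest ratio between DMSO and a treatment, H1-4/H2BC5 is a histone pair and SLC7A11 the member poorest in G and C. SLC7A11 and the histone pair are shown with DMSO and with ATRA because their strongest summits lie in different places in the 2 lists.
SAP30L, DMSO, chr5:154445832-154445951: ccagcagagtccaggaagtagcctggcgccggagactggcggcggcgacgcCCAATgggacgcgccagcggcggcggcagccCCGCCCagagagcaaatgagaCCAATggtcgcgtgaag
HSP90AB1, DMSO, chr6:44247490-44247609: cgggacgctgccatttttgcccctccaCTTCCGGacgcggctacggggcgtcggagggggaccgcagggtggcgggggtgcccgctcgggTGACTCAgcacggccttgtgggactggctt
H1-4/H2BC5, DMSO, chr6:26158175-26158294: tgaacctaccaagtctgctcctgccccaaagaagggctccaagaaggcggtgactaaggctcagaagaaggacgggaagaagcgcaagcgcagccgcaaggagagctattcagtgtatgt
H1-4/H2BC5, ATRA, chr6:26157886-26158005: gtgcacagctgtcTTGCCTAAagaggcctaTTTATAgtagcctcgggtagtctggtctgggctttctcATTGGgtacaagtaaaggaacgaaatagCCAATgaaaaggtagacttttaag
SLC7A11 (nearest gene), DMSO, chr4:138406287-138406406: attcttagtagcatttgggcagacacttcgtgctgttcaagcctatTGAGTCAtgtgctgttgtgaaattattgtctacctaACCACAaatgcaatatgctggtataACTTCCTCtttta
SLC7A11 (nearest gene), ATRA, chr4:138407001-138407120: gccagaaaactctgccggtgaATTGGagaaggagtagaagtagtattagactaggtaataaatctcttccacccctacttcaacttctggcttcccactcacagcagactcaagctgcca

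In the SAP30L window the capitals are 1 GC box (CCGCCC, the reverse complement of GGGCGG) and 2 CCAAT boxes, the usual elements of a CpG-island promoter, and 70% of its bases are G or C with 14 CpGs. The HSP90AB1 window lies in an intron of that gene and carries CTTCCGG, the reverse complement of the ETS consensus CCGGAAG, and the AP-1 consensus TGACTCA. The DMSO summit of the histone pair fell in the coding exon of H2BC5 and its window held no match, whereas the ATRA window lay between the genes and held 2 CCAAT boxes, a TATA box (TTTATA on this strand) and a C/EBP match (TTGCCTAA). The SLC7A11 window with DMSO held an AP-1 match (TGAGTCA), a RUNX match (ACCACA, from TGTGGT) and a PU.1 match (ACTTCCTC, from GAGGAAGT) in sequence with 38.3% G and C and 1 CpG. A match is a string of letters and not a bound factor.

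Genes were first read from the annotation, which the rule did not use. With 1 canonical start taken per gene in GENCODE release 44, 166 of the 204 regions (81.4%, 95% Wilson interval 75.5 to 86.1, which covers counting error over regions only) held an annotated transcription start, against 18.6% of the 66303 regions called in all lists. A start of a protein-coding gene lay inside 151 members (74.0%, against 15.3%), 30 members held 2 or more coding starts (14.7%, against 1.78%), 15 held only noncoding starts and 38 held none. In all, 184 coding starts lay in members, which is 1.61% of the 11434 coding genes that had a start in a region of every list. A wide region covers more bases than a narrow one, and the shares were not adjusted for that.

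Listed regulators contributed few members by their canonical starts. Starts of other transcripts were not counted for these genes. Of 34 blood cell transcription factor genes with a canonical start in a region of all 4 lists, 1 had it in a member: TFEB, the regulator of lysosome genes. RUNX2, in an intron of which the widest member by median width lies, is on the same list. Its region on chromosome 6 (chr6:41733691-41735876) measured 2139 bp with DMSO, 2122 with ATRA, 2103 with Corin and 2132 with the combination, with 5 summits in each list. Among 30 immediate early genes, which are induced without new protein synthesis, 2 had their start in a member: JUN, a subunit of AP-1, and ZFP36L2, which binds and destabilises mRNAs. Of 32 signalling and cytokine genes 1 did, NFKB1, the precursor of the p50 subunit of NF-kB, whose widths were 2034, 2040, 2014 and 2054 bp in the order DMSO, ATRA, Corin and combination. None of 12 retinoic acid receptor and target genes, 28 CoREST and chromatin enzyme genes, 29 myeloid surface and effector genes, 6 HOX genes or 4 genes of other cell types had a start in a member. The base for reading these counts is the 1.61% of all coding genes, beside which a list of this length can hold 0 or 1 gene with nothing particular to it.

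A list of small RNA genes, which also held longer noncoding RNAs such as NEAT1 and MALAT1, gave 2 of 22. They were RNU4-1 and RNU4-2, which encode U4 small nuclear RNA of the spliceosome and share the region chr12:120290527-120293531. The 2 genes thus stand for 1 member, and the base of 1.61% covers coding genes and not these. Histone genes, a family chosen after the values were seen, gave 3 of 17 H2A genes, 3 of 15 H2B genes and 2 of 6 H1 genes with a start in a member, and 0 of 8 H3C and 0 of 9 H4C genes. They fell in 4 regions, at H1-4 and H2BC5, at H2BC21, H2AC20 and H2AC21, at H2BC11 and H2AC11, and at H1-10. The first of these, chr6:26156168-26159143, measured 2923, 2976, 2896 and 2968 bp with DMSO, ATRA, Corin and the combination, so that the 2 neighbouring promoters were called as 1 open stretch under each treatment. None of the 52 genes with an RPL symbol and 42 with an RPS symbol (ribosomal proteins) had a start in a member.

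The 38 members without a canonical start were assigned to the nearest coding gene, which is a matter of distance and not of regulation. With the starts of all annotated transcripts 88.7% of members held a start, in place of 81.4%. Some of the 38 thus hold the start of another transcript, and distances are to canonical starts. The nearest genes were of many kinds, among them SHH, WNT11 and RET, which are known from development, and those described here were chosen after their values were seen. CEBPA, a master regulator of the granulocyte and monocyte lineages, was nearest to a region 33317 bp away (chr19:33266903-33269217) with widths of 2265, 2205, 2266 and 2223 bp. IRF5, a transcription factor of macrophage cytokine genes, lay 877 bp from a region inside its intron (2642, 2569, 2590 and 2574 bp). CCR1, a chemokine receptor of monocytes, was 12867 bp from a region with widths of 2200, 2186, 2164 and 2295 bp, and the immediate early genes JUND and IER2 were 9767 and 12125 bp from theirs. The distance reached 218902 bp for BCL2, an inhibitor of apoptosis, and 163089 bp for SLC7A11, the cystine transporter, whose region lies in an intron of LINC00499. In none of these named regions was a treatment width 25% above or 20% below the DMSO width.

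Base composition, also outside the rule, set the members apart from all regions in description. The median share of G and C over the region was 64.7%, against 48.2% for all regions called in every list. The median ratio of observed to expected CpG, which is near 1 where CpG has not been depleted, was 0.747 against 0.228. A ratio of at least 0.6, a common limit for a CpG island, was met by 150 members (73.5%, against 16.7% of all). Members with a coding start met it in 132 of 151 cases (87.4%) and the remaining 53 members in 18 (34.0%). The other 10021 regions with a coding start had a median ratio of 0.752 over the region, close to the 0.791 of members with a coding start. Their median share of G and C was 62.1%, against 65.3% for members with a coding start. The ratio was highest for MIR17HG, the host gene of the miR-17-92 microRNA cluster, at 0.987, and lowest for the region nearest SLC7A11 at 0.0506.

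Motifs were searched on both strands in 200 bp around the strongest DMSO summit. The GC box (GGGCGG), to which SP and KLF proteins bind, was present in 135 of 204 members (66.2%), against 18.8% of all regions called in 4 lists. Among regions with a coding start the share was 74.8% for members and 70.2% for the others. Motifs of myeloid factors were rarer in members than over all regions. They were also rarer in the other regions with a coding start, so a share below that of all regions is not particular to the wide ones. RUNX (TGTGGT) was found in 6.86% of members, 21.6% of all regions and 6.53% of the other coding-start regions. For C/EBP (TTGCNNAA) the 3 shares were 3.43%, 16.8% and 3.89%, for AP-1 (TGANTCA) 4.41%, 13.4% and 3.03%, and for PU.1 (GAGGAAGT) 3.92%, 7.30% and 2.41%. The retinoic acid receptor half-site (AGGTCA) was found in 3.92% of members, 11.1% of all regions and 5.21% of the other coding-start regions. Among members with a coding start the shares were 3.31% for RUNX, 2.65% for C/EBP, 1.99% for AP-1 and 3.31% for the half-site. Each of these was below the share of the other coding-start regions, whereas PU.1, at 3.31%, was above it. Over 151 members such shares stand for few regions, and the differences were not tested, so no direction is read from them. The ETS consensus (CCGGAAG) was found in 8.33% of members and 4.54% of all regions, and among regions with a coding start in 8.61% of members and 16.7% of the others. These shares describe letters in 1 window per region and were not adjusted for base composition.

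Width was nearly constant over the treatments. The median was 2242 bp with DMSO (range 2020 to 3427), 2227 with ATRA (2002 to 3351), 2202 with Corin (2002 to 3024) and 2230 with the combination (2006 to 3365), and the lower end of each range is set by the 2000 bp limit. Over the 4 lists the widest value of a member was at the median 1.06 times its narrowest, and at most 1.58 times. In 138 members (67.6%) the 4 widths lay within 10% of each other, against 13.9% of all regions called in 4 lists, and in 193 (94.6%, against 36.8%) the widest was at most 25% above the narrowest. Each member must reach 2000 bp in every list, a floor not set for the other regions. The closeness of the members' widths therefore follows in part from the rule. A given shift of an edge is also a smaller share of a wide region than of a narrow one. The stretch shared by all 4 lists was 2099 bp at the median, or 93.2% of the union. The widest of the 4 values was most often that of ATRA (84 members) and the narrowest most often that of Corin (82 members). ATRA was also the narrowest in 56 members, against 41 for the combination and 25 for DMSO. All regions called in 4 lists leaned the same way against DMSO. With ATRA 18% of them were at least 25% wider and 14.3% at least 20% narrower. With Corin these shares were 8.77% and 23.1%. Which list was widest or narrowest was not counted over all regions, so the counts are not read as particular to members. The whole Corin list also had the fewest wide regions, 498 against 681 with DMSO, 615 with ATRA and 640 with the combination. The lists differ in length. As a share of the joined regions of its list this was 0.489% with Corin, 0.584% with DMSO, 0.540% with ATRA and 0.674% with the combination.

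**Figure D1:**
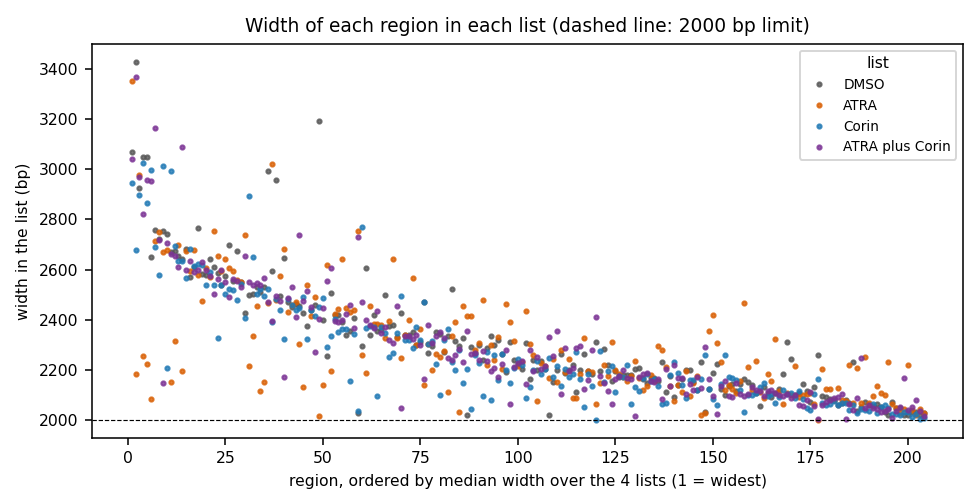
Width in bp (y axis) of each of the 204 members in each list (coloured points), with members ordered along the x axis by their median width and the 2000 bp limit as a dashed line. For most members the 4 points lie close together, and the points that lie far below the band belong to members near the wide end, ATRA points among them.

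Members close to the limit show how little decides entry. Just inside, SRSF9, a splicing factor gene, measured 2020, 2045, 2004 and 2036 bp with DMSO, ATRA, Corin and the combination. NUP210, a nuclear pore gene, measured 2311, 2064, 2002 and 2410 bp, and the region nearest CAB39 at chr2:230666960-230669240 measured 2260, 2002, 2163 and 2007 bp. Just outside, GGNBP2 measured 2020, 2037, 1998 and 2011 bp, AFF1, a subunit of the super elongation complex, 2135, 2311, 1999 and 2279 bp, and the noncoding ENSG00000278954 2019, 2716, 2025 and 1999 bp. A few bases in 1 list thus separate members from non-members.

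A further 208 regions reached the limit in exactly 3 lists. Of these, 108 missed it with ATRA, 61 with Corin, 26 with the combination and 13 with DMSO, and 0 were absent from the list that missed. In the ATRA list 75 of the 108 were called as 2 or more separate regions, as were 29 of the 61 in the Corin list, 9 of the 26 in the combination list and 7 of the 13 in the DMSO list. Breaks in a wide region therefore accompanied most of the misses with ATRA.

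The treatments were compared by calling a member wider when its width was at least 25% above that of the other list, and narrower when it was at least 20% below, which is the inverse ratio. ATRA against DMSO gave 1 wider member, while 18% of all regions called in 4 lists were wider, and 5 narrower, while 14.3% of all were. For Corin against DMSO 0 members were wider (8.77% of all) and 2 narrower (23.1% of all). The combination against DMSO gave 1 wider (17.8% of all) and 2 narrower (15.4% of all). Against ATRA alone the combination gave 4 wider (15.5% of all) and 1 narrower (17% of all), and against Corin alone 2 wider (25.1% of all) and 1 narrower (8.73% of all). A member must reach 2000 bp in every list, so a region cut below that by a treatment is no member, and the low counts follow in part from the rule. The limits are also relative. With DMSO the median width was 2242 bp for members and 738 bp for all regions called in 4 lists. An edge must therefore shift by more bases in a member to give a call. The low counts do not show that members are more stable than other regions. The comparisons share lists, so their counts are not independent of each other.

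**Figure D2:**
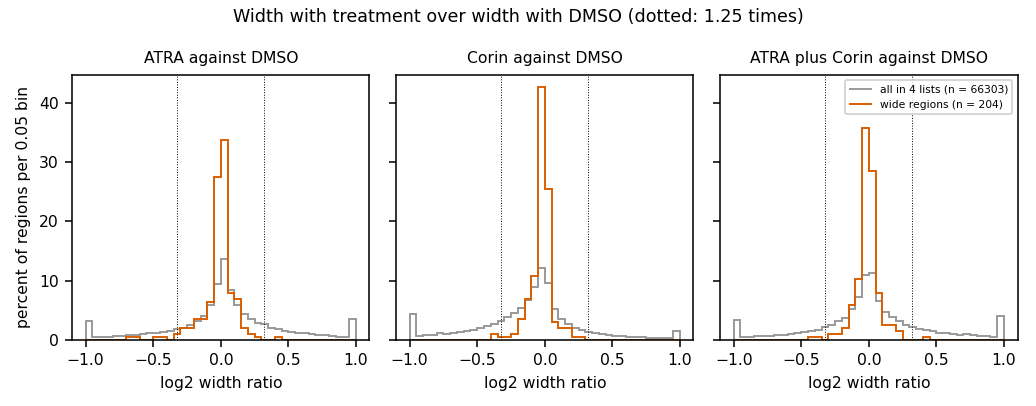
Log2 of the width with each treatment over the width with DMSO (x axis), as percent of regions per 0.05-wide bin (y axis), for the 204 members and for all 66303 regions called in 4 lists, with dotted lines at the limits of 25% above and 20% below and values beyond the ends of the axis gathered in the last bins. The members' ratios cluster around 0, while those of all regions spread past the dotted lines on either side.

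These 19 calls fell on 9 members, and in 15 calls at least 1 of the compared lists held the region as several pieces. Narrowing was thus of 2 kinds, a shorter single region and a region broken by gaps. The remaining 4 calls, in which both lists held 1 region, fell on HSP90AB1 and MKNK2 (2 members).

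HSP90AB1 encodes the constitutive cytosolic chaperone HSP90-beta and is transcribed at a high level in most cells. Its region, chr6:44246134-44249336, was 3190 bp wide with DMSO, 2016 with ATRA, 2452 with Corin and 2404 with the combination. The DMSO list stood above the other 3, and ATRA gave the lowest value, 0.632 of that with DMSO. The upstream edge lay 954 bp before the start with DMSO and with ATRA, while the downstream edge lay 2235 bp into the gene with DMSO, 1061 with ATRA, 1484 with Corin and 1517 with the combination. The difference was thus at the gene-body end. The number of summits was 9 with DMSO, 5 with ATRA, 8 with Corin and 6 with the combination. The strongest summit lay 449 bp downstream of the start with DMSO, in the intron window printed above, 463 bp with Corin and 443 bp with the combination, but 42 bp upstream of the start with ATRA.

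MKNK2, a kinase that phosphorylates the translation factor eIF4E, gave a like picture at chr19:2048602-2051856. Its widths were 3049 bp with DMSO, 2258 with ATRA, 3024 with Corin and 2820 with the combination. ATRA alone was low, at 0.741 of DMSO, and the other 3 lists lay within 10% of each other. The downstream edge lay 2642 bp into the gene with DMSO, 1645 with ATRA, 2637 with Corin and 2413 with the combination. The strongest summit moved from 622 bp downstream of the start with DMSO to 35 bp upstream with ATRA, and lay 191 and 185 bp downstream with Corin and with the combination.

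HMGA1, an architectural chromatin protein, and JUN were not called but shared the feature that ATRA differed from the other 3 lists. The main HMGA1 region ran from 1983 bp upstream of the start to 515 bp downstream with DMSO, from 2012 to 879 with Corin and from 2023 to 527 with the combination. With ATRA it ran from 366 bp upstream to 1848 bp downstream. The other lists held a second, separate piece inside the ATRA region, from 997 to 1481 bp downstream with DMSO, 1249 to 1471 with Corin and 1263 to 1447 with the combination. The widths of the main regions were 2499 bp with DMSO, 2215 with ATRA, 2892 with Corin and 2551 with the combination. With the second pieces not counted, 22.8% of the union was common to all 4, the lowest share of any member. At JUN 1 region of 2427 bp with DMSO, 2492 with Corin and 2475 with the combination stood against 3 pieces with ATRA, of 2131, 242 and 475 bp.

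**Figure D3:**
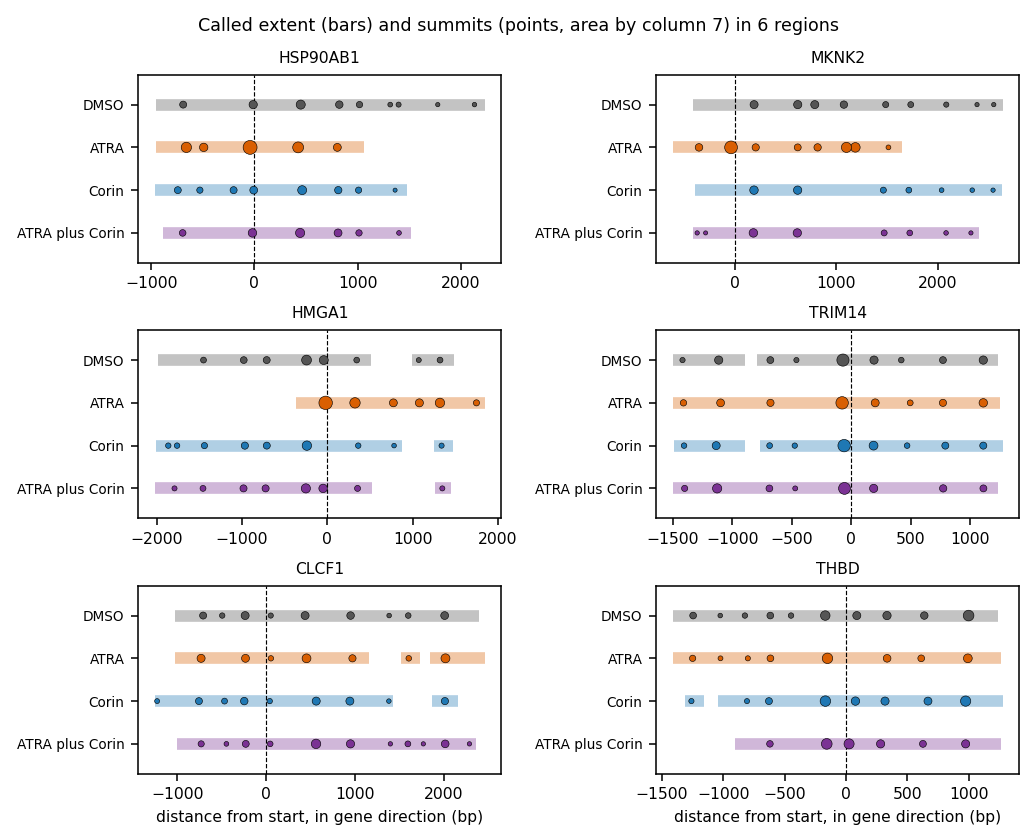
Called regions (bars) and their summits (points, area in proportion to column 7) in each list for 6 members, along the distance in bp from the transcription start in the direction of the gene, with the start as a dashed line. HSP90AB1 and MKNK2 end closer to the start with ATRA, the main HMGA1 region lies mostly downstream with ATRA and mostly upstream otherwise, and gaps in the bars of TRIM14, CLCF1 and THBD show where a list split the region.

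CLCF1, a cytokine of the interleukin-6 family, gave the greatest number of calls, 4, and all of them involved a split. Its widths were 3427 bp with DMSO, 2186 with ATRA, 2678 with Corin and 3365 with the combination. With DMSO and with the combination the region was in 1 piece, with ATRA in 3 pieces (2186, 208 and 621 bp) and with Corin in 2 (2678 and 288 bp). The outer edges differed much less: with ATRA the pieces still reached from 1030 bp upstream to 2464 bp downstream of the start, against 1023 and 2403 bp with DMSO. ARID1B, a subunit of the BAF chromatin remodelling complex, measured 3050, 2224, 2867 and 2957 bp with DMSO, ATRA, Corin and the combination. Its ATRA value was the low one, and a 109-bp gap divided the region in that list. PFN1, the actin-binding protein profilin, measured 2643, 2196, 2634 and 3087 bp, in 3 pieces with ATRA. CTDSP2, a phosphatase, measured 2752, 2670, 3011 and 2147 bp, in 2 pieces with DMSO and with Corin, 1 with ATRA and 4 with the combination.

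The gaps of TRIM14 and RNU4-2 lay on repeated sequence. TRIM14, a protein of antiviral signalling, measured 2028 bp with DMSO, 2754 with ATRA, 2038 with Corin and 2731 with the combination, and the lists with the lower values had it in 2 pieces. The gap was 99 bp long with DMSO and 125 bp with Corin. Of the 30-base words that touch it, 68.8% with DMSO and 74.0% with Corin occurred more than once in hg38, 1 of them 93724 times. The RNU4-2 region measured 2650, 2085, 2998 and 2954 bp, and its 109-bp gap with ATRA held 48.6% repeated words. Over all 50 gaps, in 27 members, the share was 2.86%, against 1.72% outside gaps. The next highest shares were 24.3% with the combination and 21.7% with ATRA at TENT5A. Whether reads failed to align there was not tested. The ARID1B gap with ATRA is printed on the plus strand of hg38 to show an unlike kind of break, in which 92.7% of the bases are G or C.
ARID1B gap, ATRA, chr6:156777699-156777807: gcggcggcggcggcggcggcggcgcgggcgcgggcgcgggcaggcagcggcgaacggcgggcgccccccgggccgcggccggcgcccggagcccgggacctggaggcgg

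Of the 204 members, 177 (86.8%) were 1 region in every list, against 91.6% of all regions called in 4 lists. With ATRA 17 members were split (8.33%, against 4.26% of all), with Corin 11 (5.39%, against 3.57%), with the combination 9 (4.41%, against 2.18%) and with DMSO 7 (3.43%, against 3.41%). The widest member by median width, ENSG00000271857, was not among the split ones. It is a noncoding gene whose region lies in an intron of the canonical transcript of RUNX2, a transcription factor of bone formation. Whether this region holds the start of another RUNX2 transcript was not read. It measured 3067 bp with DMSO, 3351 with ATRA, 2946 with Corin and 3039 with the combination. The region nearest AURKB, a mitotic kinase, measured 2757, 2715, 2690 and 3162 bp and was in 2 pieces with DMSO and with Corin. The region with MIR3190 (in an intron of BBC3, a promoter of apoptosis) measured 2723, 2751, 2580 and 2719 bp. TRERF1 measured 2743, 2679, 2209 and 2707 bp, with Corin the low value of the 4, in 1 region in each list. ZFP36L2 measured 2298, 2259, 2771 and 2470 bp and was highest with Corin. THBD, thrombomodulin, an anticoagulant receptor, measured 2645, 2681, 2324 and 2172 bp.

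Summits are the points of highest signal within a peak, and a wide region holds several. The number per member was 7 at the median with DMSO (range 4 to 11), 7 with ATRA (4 to 13), 6 with Corin (3 to 11) and 6 with the combination (3 to 11), against 2 for all regions called in 4 lists. The totals were 1382, 1438, 1293 and 1339 summits. Neighbouring summits were 304, 299, 307 and 306 bp apart at the median with DMSO, ATRA, Corin and the combination. NR3C1, the glucocorticoid receptor, had the most, with 11 summits with DMSO, 10 with ATRA, 10 with Corin and 11 with the combination. The region nearest LZTS2 had 9, 11, 10 and 10, ENSG00000271857 had 9, 12, 8 and 8, and S1PR4, a sphingosine-1-phosphate receptor of blood cells, 9, 10, 8 and 10.

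With ATRA 89 members had more summits than with DMSO (28.4% of all regions had) and 57 had fewer (17.5% of all regions). With Corin 32 had more (13.3% of all regions) and 93 fewer (31.1% of all). With the combination 57 had more (23.1% of all) and 74 fewer (22.9% of all). The balance for members, more with ATRA and fewer with Corin, had the direction seen over all regions. Of the 1382 DMSO summits, 90.1% had a summit within 100 bp in the ATRA list, 86.8% in the Corin list and 88.4% in the combination list. Over all regions in 4 lists these shares were 86.7%, 79.2% and 83.5%. Neighbouring summits of members were 299 to 307 bp apart at the median. A window of 100 bp to either side can therefore meet a summit wherever the first one lies. How many matches arise in this way was not tested, so the shares do not show that positions are better kept in members.

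The position of summits was read around the start in the 121 members with exactly 1 coding start inside. At the median these regions reached 1183 bp upstream and 1208 bp downstream of the start with DMSO. The 200 bp just upstream of the start held 101 DMSO summits and the strongest summit of 50 members. The 200 bp just downstream, where the first nucleosome of a gene lies at many promoters, held 42 summits and 7 strongest ones. Summits were again more frequent from 200 to 400 bp and 400 to 600 bp downstream, at 68 and 71. The 3 treatment lists followed the DMSO profile, with 116 summits in the upstream bin and 32 in the downstream bin with ATRA.

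**Figure D4:**
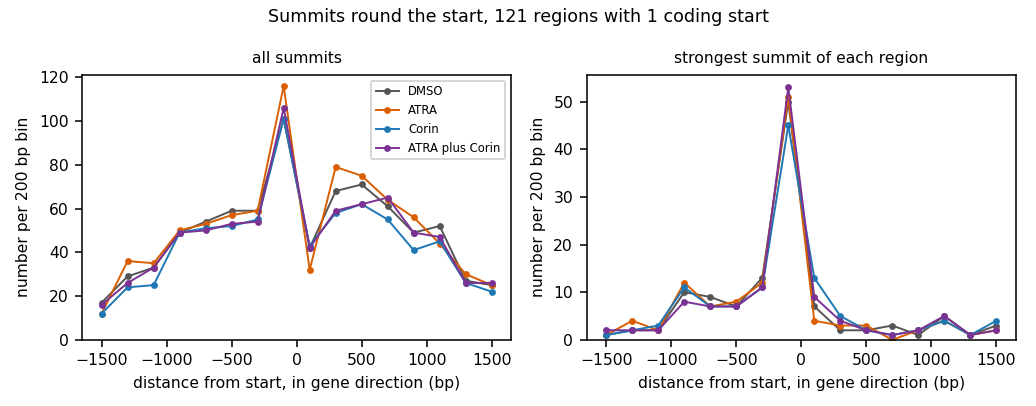
Number of summits (left) and of strongest summits (right) per 200 bp bin (y axes) against the distance in bp from the coding start in gene direction (x axis), for 121 members with 1 coding start, 1 line per list. Each list peaks in the bin just upstream of the start, and in the left panel each then dips in the next bin before a lower plateau.

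The strongest summit was less fixed in place than the region. It lay within 100 bp in every list in 118 of 204 members (57.8%), against 86.0% of all regions, which have fewer summits to choose among. Compared with DMSO, 152 members (74.5%) kept it within 100 bp with ATRA, 162 (79.4%) with Corin and 161 (78.9%) with the combination, against 92.8%, 93.2% and 93.1% of all regions. In 34, 30 and 29 members it lay more than 500 bp away. At THBD the strongest summit was 998 bp downstream of the start with DMSO, in the coding exon, and the positions in the 4 lists spanned 1167 bp. At the H1-4 and H2BC5 pair it lay 113 bp downstream of the H2BC5 start with DMSO, 176 bp upstream with ATRA, 129 bp downstream with Corin and 1774 bp upstream with the combination. At SAP30L, in contrast, it stayed within 24 bp.

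Column 7 of the lists is the authors' fold of each peak over the background near it, and the highest value in each member was taken. It describes a peak within its own list, since the typical fold of the lists differs, with medians over all peaks of 3.47 with DMSO, 4.80 with ATRA, 3.32 with Corin and 3.68 with the combination. By this highest value members lay below other regions with ATRA and near them in the other lists. Their medians were 8.48, 9.43, 8.19 and 8.79, against 8.74, 11.8, 7.93 and 8.81 for all regions called in 4 lists. Members have more summits from which the highest is taken. By the median fold over the peaks of a region, members lay below all regions in each list. The medians of that value were 3.83, 4.14, 3.93 and 3.99, against 5.40, 6.50, 5.33 and 5.32. By the highest of the authors' −log10 p, which is also taken over more summits in members, they lay above other regions in each list. Their medians were 554, 661, 564 and 733, against 133, 186, 115 and 147. The local background, solved from fold and p as the authors' peak caller would have computed them, was also higher in members. It was 9.74, 13.2, 9.13 and 10.5 times the usual level of the list at the median member, against 1.96, 2.30, 1.82 and 1.84 over all regions. The background was more than 2 times the usual level in 204 of 204 members. The fold of a wide region is thus measured against a background raised around it, and its part in the folds was not tested.

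The highest fold of all members with DMSO belonged to SAP30L, a subunit of the Sin3 histone deacetylase complex, at 18.4, with 17.2 with ATRA, 17.6 with Corin and 18.1 with the combination. It ranked 1, 1, 2 and 1 among the 204 members. TCF12, a helix-loop-helix transcription factor that shares its region with ENSG00000285253, stood at 15.9, 15.8, 14.9 and 15.2. The intronic region in PALM2AKAP2 (nearest coding start C9orf152) stood at 16.0, 15.0, 18.1 and 16.5. PTP4A1, a phosphatase gene that shares its region with ENSG00000285976, stood at 14.7, 13.9, 12.6 and 12.9. These regions, apart from PTP4A1, kept their order over the lists to within a few ranks. PTP4A1 ranked 5 with DMSO, 13 with ATRA and 18 with Corin and with the combination.

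The lowest fold in each list was that of the region with MIR612, which lies in an exon of NEAT1, the long noncoding RNA of paraspeckles. Its folds were 2.52, 2.91, 2.65 and 3.13 with DMSO, ATRA, Corin and the combination, and its −log10 p of 24.6, 34.5, 18.0 and 32.3 was also the lowest of all members. CXCR4, the chemokine receptor for CXCL12, ranked just above it in each list, at 4.09, 4.05, 4.10 and 3.72. Its region of 2576, 2642, 2504 and 2551 bp was nonetheless in 1 piece in each list, with 8, 8, 7 and 9 summits.

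**Figure D5:**
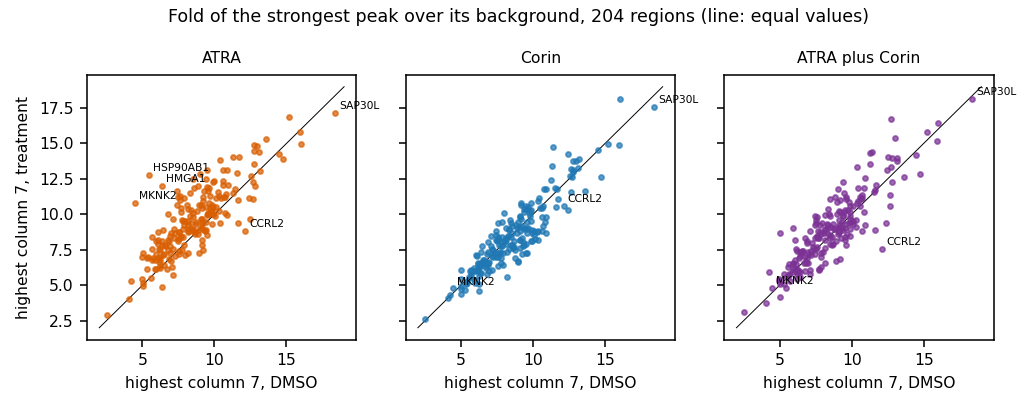
Highest column 7 (the authors' fold of a peak over its background) of each of the 204 members with each treatment (y axis) against that with DMSO (x axis), with the line of equal values. HSP90AB1, MKNK2 and HMGA1 lie above the line with ATRA, at 12.8, 10.8 and 12.0 against 5.43, 4.47 and 6.39 with DMSO.

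Ranks among the 204 members, which compare a member with the others of its list, moved by 19 places at the median between DMSO and ATRA, 14.5 between DMSO and Corin and 16 between DMSO and the combination. Within 20 places stayed 109, 122 and 125 members. The greatest rise was that of HSP90AB1, from rank 192 with DMSO to 22 with ATRA, with 191 with Corin and 193 with the combination. Its folds were 5.43, 12.8, 5.29 and 5.57, and its background over the usual level of the list was 33.4 with DMSO, 15.2 with ATRA, 41.4 with Corin and 40.99 with the combination. MKNK2 rose from rank 201 to 62 with ATRA, with folds of 4.47, 10.8, 4.77 and 4.80 and a background of 27.3, 9.12, 31.7 and 36.6 times the usual level. HMGA1 went from rank 167 to 34, with folds of 6.39, 12.0, 5.83 and 5.60 and a background of 13.9, 6.54, 18.5 and 18.1. These 3 genes were named for their rise in fold with ATRA, and the background was solved from that fold and p, so neither supports the other. The highest folds also come from different summits in the lists, and each value comes from 1 list.

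The greatest fall with ATRA was that of the region nearest CCRL2, an atypical chemokine receptor of myeloid cells. It went from rank 20 to 125, with ranks of 33 with Corin and 140 with the combination. Its folds were 12.1, 8.81, 10.6 and 7.55 and its −log10 p was 369, 166, 191 and 145 with DMSO, ATRA, Corin and the combination. Its width did not follow, at 2123, 2232, 2144 and 2138 bp. In this region 32.5% of 30-base words occurred more than once in hg38. TGIF2, a transcriptional co-repressor, fell from rank 77 to 161 with ATRA and 160 with the combination and rose to 31 with Corin. The intronic region of SRCIN1, an adaptor of SRC kinase signalling, fell from rank 22 to 105 with ATRA, with ranks of 21 and 27 with Corin and the combination.

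With Corin the rises were those of DAP (rank 135 to 60), SBF2-AS1 (118 to 46) and CDA, cytidine deaminase (123 to 57). The falls were those of SNHG7, a small nucleolar RNA host gene (rank 60 to 135), TRAF3IP2, the adaptor Act1 of interleukin-17 signalling (111 to 185), and AGBL5, a carboxypeptidase (64 to 134). CDA had folds of 7.83, 8.95, 9.43 and 9.28 and −log10 p of 314, 524, 488 and 738 with DMSO, ATRA, Corin and the combination. TRAF3IP2 had folds of 8.16, 7.26, 5.60 and 6.54. With the combination the region nearest AURKB rose from rank 196 to 108, MFSD3 from 184 to 92 and the region nearest STPG4 from 140 to 63. Their folds with DMSO and with the combination were 5.03 and 8.65, 5.91 and 9.02, and 7.43 and 9.86. None of these differences has a replicate check.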

How the data were processed

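ATAC-seq of U-937 cells (8 samples, 2 in each of 4 groups, grouped per the labels) was read from 1 deposited narrowPeak list per group, whose file name gives the treatment. Per the submitters' processing notes, reads were handled with cutadapt, Bowtie2, SAMtools, Picard and MACS2 on build hg38, with no versions or settings given. Per the file names the lists are a filtered naive overlap. In the deposited lists column 7 is a ratio (fold of a peak over its background), columns 8 and 9 are −log10 values of p and q, column 5 is a display score that was not used further, and the authors had combined the replicates. Per-sample columns left out numbered 0.

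Rows with equal ends were taken as summits of 1 peak, overlapping peaks were merged, and union regions were formed. The local background was solved from p and fold under a Poisson model, which gave a whole pileup (within 0.05) for at least 99.9651% of peaks of each list. The hg38 sequence and GENCODE release 44 gave genes and bases, with 1 canonical transcript per gene. The printed sequences are from the hg38 reference. Regions were named by a rule: the widest 10, those with the most summits, the highest folds with DMSO, the largest width ratios and shifts in rank, the listed genes and the regions beside the limit. Others are named as chosen after their values were seen. Of the regions the rule selects, 1 is not reported here. The members and gene lists were chosen with earlier results of these data known. Scripts ran in Python 3.11.15 with numpy 2.4.6, pandas 2.3.3 and scipy 1.17.1. They were tested on 5000 simulated regions, where 100% of planted wide regions were recovered. Read depth is unknown and intervals cover counting error only. Alternatives covered the width limit, merging, list length, q, summit spacing, ratio, starts and window.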

Additional observations from a re-analysis of the deposited data

Results flagged for a closer look

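At CLCF1 the width differed in opposite directions with and without the other compound. With ATRA alone it was 0.638 times that with DMSO, and with ATRA on top of Corin it was 1.26 times that with Corin. With Corin alone it was 0.781 times that with DMSO, and with Corin on top of ATRA it was 1.54 times that with ATRA. The lists with the low values held the region in 3 pieces (ATRA) and 2 pieces (Corin), and those with the high values in 1. Each value comes from 1 list, so the difference was not tested.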

How the results depend on the processing

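Of 129 values recomputed under 14 other settings, 29 moved by more than the limit set for them (1.5 times for a count, the 95% interval or spread for other values) and 100 did not. A limit of 1500 bp gave 1845 regions, a limit of 3000 bp gave 0 and the sum of all pieces of a list as the width gave 370, which held the 204. Merging peaks within 150 bp gave 296 regions with a median ATRA width of 2278.5 bp, again holding the 204. In that set the members wider than with DMSO came to 2.70% with ATRA, 1.01% with Corin and 1.69% with the combination, and those narrower with the combination than with ATRA to 1.69%, against reported shares of 0.490%, 0%, 0.490% and 0.490%, a change inside those intervals. With summed pieces the median widths were 2321 bp for DMSO, 2307 for ATRA and 2294 for the combination. The median over the peaks of a member, in place of the highest, gave folds of 3.83, 4.14, 3.93 and 3.99 with DMSO, ATRA, Corin and the combination. With a ratio of 1.5 times, 0.980% of members were narrower with ATRA against DMSO, 0.490% were wider with the combination against ATRA, and 0% were wider or narrower in the other comparisons that moved. The next 2 alternatives were chosen after seeing the data. Over members that were 1 region in every list, 0% were wider with ATRA or the combination against DMSO, wider or narrower with the combination against ATRA, or wider or narrower with the combination against Corin. With the starts of all annotated transcripts 88.7% of members held a start, and with coding genes only 74.0%. A GC box was found in 49.0% of members in windows of 100 bp. A shorter window, fewer starts or a higher limit can by construction only lower these counts, and the cause of the other shifts was not tested. The planned limit on the background left 0 members, since 204 of 204 exceeded it, and gave no value. No paired analysis was possible because each group had 1 combined list without replicates. The unknown depth limits each comparison between lists.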
